A study of Mus musculus with 48 samples.

Results

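The gene set described here was the interferon-gamma-induced GTPases of the mouse, 10 genes chosen by symbol. It held the guanylate-binding proteins Gbp2, Gbp3, Gbp4, Gbp5 and Gbp7 and the immunity-related GTPases Igtp, Irgm1, Irgm2, Iigp1 and Ifi47. All 10 were among the 14349 genes listed in both count tables, which held 20300 genes for the mix of brain and tumor cells and 14363 genes for the CD11b+ cells.

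Interferon-gamma released by lymphocytes binds the receptor made of Ifngr1 and Ifngr2, and the signal reaches, in part through Irf1, the promoters of these genes. Guanylate-binding proteins assemble on the membranes around intracellular microbes and open them. Among the immunity-related GTPases, Irgm1, Irgm2 and Igtp sit on the membranes of the cell itself and hold effectors such as Iigp1 and Ifi47 inactive until a microbe is met.

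The study measured single-cell RNA in GL261 gliomas of the mouse. GL261 cells carried a retroviral short hairpin RNA, either a negative control (shNC) or one against Selp, the gene of P-selectin (shSELP). The methods give 70% to 90% infected cells and a selection with puromycin. The cells were implanted in the striatum of male C57BL/6 mice at an age of 6 weeks, and the brains of 3 mice were pooled per group. From the pools the CD11b+ cells, the CD45+ cells and the remaining cells were mixed in equal amounts (the mix, 2 libraries per group), and CD11b+ cells were also sequenced alone (1 library per group). The labels give day 16 for the mix and day 21 for the CD11b+ cells, while the methods give day 17. The labels name version 2 of the reagent kit and the methods version 3. Whether each group's 2 libraries were made from 1 pool or from several is not given in the sources used here, so the p-values cover at least library preparation. Each library had 8 sequencing entries. Of the 8 entries of the CD11b+ shSELP library, 7 carry a description naming the negative control, against their title, source name and genotype.

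The mix libraries shNC 1, shNC 2, shSELP 1 and shSELP 2 held 22945972, 22626413, 17398121 and 25589350 UMIs in 2289, 2297, 2293 and 2293 cells. Their median UMIs per cell were 9015, 7579, 5887 and 9388, lowest in shSELP 1. The CD11b+ libraries held 12628177 (shNC) and 11445676 (shSELP) UMIs in 2862 cells each. Cells were gated on fixed markers that did not include the 10 genes. In the 4 mix libraries, in the same order, the gates held 265, 147, 48 and 34 tumor cells, 924, 798, 560 and 847 macrophages, and 66, 84, 249 and 105 microglia. They also held 88, 110, 80 and 122 dendritic cells, 19, 26, 335 and 70 endothelial cells, and 415, 438, 407 and 448 T cells. Tumor cells were fewer in both shSELP libraries, and library shSELP 1 stood apart with the most endothelial cells and microglia.

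In the mm10 annotation, Gbp5, Gbp7, Gbp3 and Gbp2 lie in this order on the plus strand of chromosome 3, between positions 142493978 and 142638008. Gbp4 lies on the minus strand of chromosome 5 (105115767 to 105139586), and Iigp1 on the plus strand of chromosome 18 (60376027 to 60392634). On chromosome 11, Irgm1 occupies 48861968 to 48871683 on the minus strand and Ifi47 49076587 to 49096974 on the plus strand. Igtp (58199556 to 58207591) and Irgm2 (58199618 to 58222782) overlap on the plus strand of chromosome 11 by 7974 bases. Gbp4 overlaps Gbp8 by 23774 and Gbp9 by 23773 bases on the same strand, Ifi47 lies inside Olfr56, and Gbp7 overlaps the pseudogene Gm43802 by 637 bases. The assignment of reads among these overlapping and closely related genes is therefore uncertain.

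Selp, the targeted gene, had 1, 0, 0 and 0 UMIs in the tumor cells of shNC 1, shNC 2, shSELP 1 and shSELP 2. A count of 0 allowed up to 1.32, 4.497 and 10.0 CPM (UMIs of a gene scaled to a common total per class and library) in the last 3 of these libraries. The knockdown could not be checked in tumor cells at this depth, so Selp gave no check of the labels. The paper reports its own measurement of silencing in GL261 cells, by which it chose the strongest of several hairpins. In endothelial cells, which did not carry the hairpin by design, Selp was at 69.8, 71.8, 9.54 and 15.1 CPM from 8, 12, 15 and 7 UMIs. Both shSELP libraries were lower than both shNC libraries there (log2 fold change −2.68, SE 0.48, adjusted p 0.0590 by edgeR), which missed the threshold and passed it without the filter on low counts (adjusted p 0.000409). In CD11b+ macrophages Selp had 3 UMIs in the shNC and 4 in the shSELP library.

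Levels were first compared between the cell classes of the mix, to describe where in the tumor the 10 genes were transcribed. The ligand gene Ifng was transcribed in T cells (752 ± 95.9 CPM, SD, n = 4 libraries) and at 2.01 CPM or less on average in each other class, with 0 UMIs in endothelial cells. These were the 6 classes compared, and Ifng was not measured in the cells gated as NK cells. Its receptor gene Ifngr1 was at 736 CPM in T cells, 206 in microglia, 156 in dendritic cells, 144 in macrophages, 67.1 in endothelial cells and 47.4 in tumor cells. Ifngr2 was at 154 CPM in microglia, 104 in macrophages, 80.5 in dendritic cells, 35.3 in endothelial cells, 23.7 in tumor cells and 5.64 in T cells. Irf1 was at 852 CPM in tumor cells, 441 in endothelial cells, 291 in dendritic cells, 136 in macrophages, 128 in T cells and 109 in microglia.

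The summed 10 GTPase transcripts had their highest CPM, which are scaled by library size, in tumor cells. Summed over the 10 genes, tumor cells had 3583, 6416, 6342 and 5440 CPM in shNC 1, shNC 2, shSELP 1 and shSELP 2. Endothelial cells had 2111, 2775, 1376 and 2076 CPM and macrophages 1225, 1595, 1445 and 1615 CPM. Every tumor value exceeded every value of the other classes, while the endothelial and macrophage values overlapped. Dendritic cells (990 ± 313 CPM, SD, n = 4) and microglia (906 ± 144) overlapped as well. T cells, with the highest Ifng of the 6 classes, had the lowest mean (551 ± 117 CPM), and their range overlapped the lowest dendritic value.

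Among the guanylate-binding proteins, Gbp2 was at 557, 919, 1027 and 813 CPM in tumor cells of shNC 1, shNC 2, shSELP 1 and shSELP 2, and at 395, 502, 478 and 521 CPM in macrophages. Each tumor value was above each macrophage value in CPM, but with the TMM scaling of the tests below the log2 fold change of Gbp2 was −0.00116 and not called. Next were dendritic cells (367 ± 155 CPM, SD, n = 4), microglia (304 ± 67.5) and endothelial cells (303 ± 114), whose ranges overlapped with one another. Gbp2 was lowest in T cells (55.7 ± 16.5 CPM), with no overlap with any other class. Gbp3 was at 345 ± 75.0 CPM in tumor cells, 233 ± 76.9 in endothelial cells and 131 ± 9.44 in macrophages, and the tumor and endothelial ranges overlapped. Gbp4 was at 250 ± 61.4 CPM in tumor cells, above macrophages (131 ± 22.2) and endothelial cells (130 ± 37.4), which overlapped, an order over macrophages not called with TMM scaling (0.11). It was at 49.3 ± 16.4 in microglia. Gbp5 was at 159 ± 40.1 CPM in tumor cells, 139 ± 47.4 in endothelial cells and 92.0 ± 44.2 in dendritic cells, all overlapping, and 14.9 ± 4.52 in T cells. Gbp7 was the member with its highest mean in endothelial cells (276 ± 44.8 CPM), which overlapped tumor cells (228 ± 56.4), and its lowest in dendritic cells (46.1 ± 14.5).

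Among the membrane regulators of the other family, Igtp was at 796, 1681, 1554 and 1298 CPM in tumor cells of shNC 1, shNC 2, shSELP 1 and shSELP 2, and at 82.3, 124, 107 and 138 CPM in macrophages. No tumor value of Igtp overlapped another class. Elsewhere its means ran from 161 ± 82.3 CPM in endothelial cells to 65.7 ± 16.97 in dendritic cells. Ranges overlapped between classes next to each other in this order, but not between endothelial and dendritic cells. Irgm1 was at 745 ± 107 CPM in tumor cells, 219 ± 123 in endothelial cells, 121 ± 20.6 in macrophages and 43.6 ± 13.1 in T cells, and its tumor values overlapped no other class. Irgm2 was at 147 ± 42.5 CPM in tumor cells and 60.4 ± 14.6 in endothelial cells, without overlap, and between 11.4 ± 3.71 and 5.99 ± 3.37 in the other classes.

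The effector Iigp1 was at 333, 773, 773 and 639 CPM in tumor cells and at 515, 502, 228 and 301 CPM in endothelial cells of shNC 1, shNC 2, shSELP 1 and shSELP 2. These ranges overlapped, and both exceeded microglia (84.4 ± 20.4 CPM, SD, n = 4), macrophages (81.7 ± 16.1), dendritic cells (66.8 ± 20.8) and T cells (20.8 ± 5.90). Ifi47 was at 780 ± 204 CPM in tumor cells, above macrophages (193 ± 37.6), endothelial cells (175 ± 61.3), dendritic cells (142 ± 25.2) and T cells (124 ± 25.6), which overlapped in sequence. Microglia had the lowest Ifi47 (42.4 ± 14.2 CPM), below each other class.

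**Figure D1:**
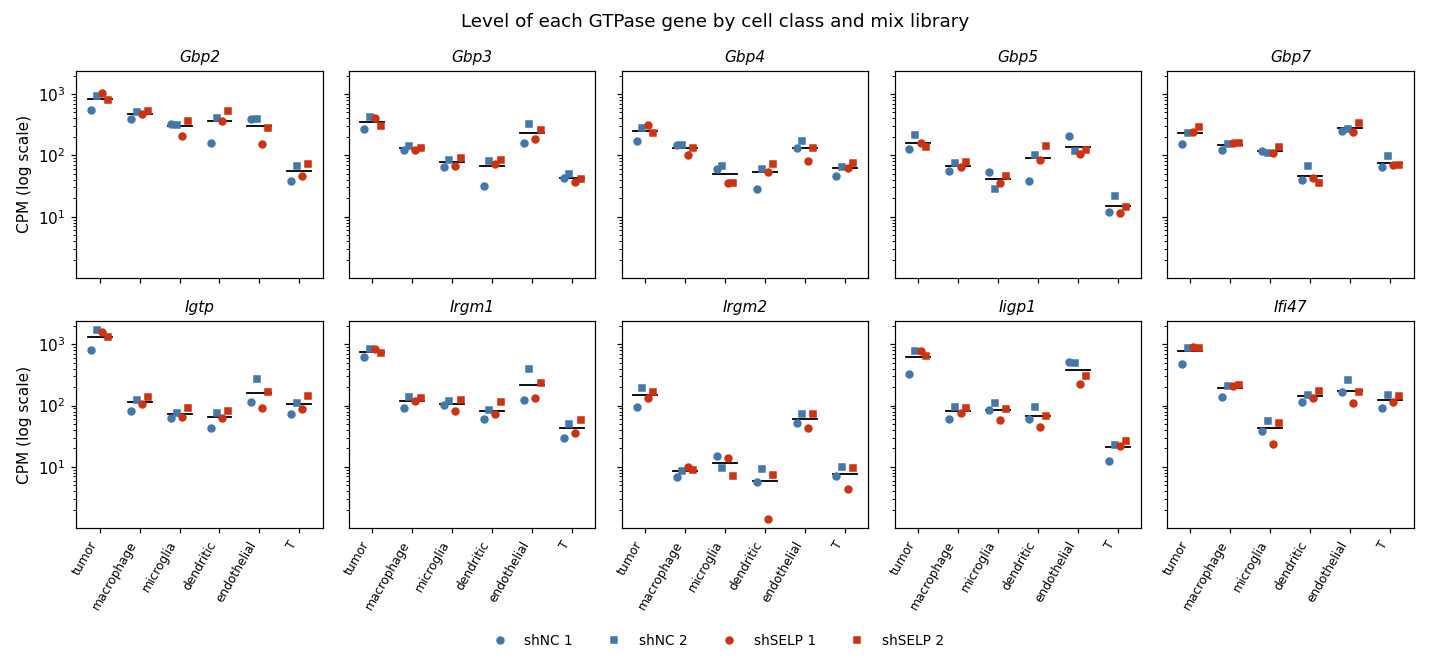
Level of each of the 10 genes by cell class in the 4 mix libraries, in CPM on a log axis, with 1 point per library (shNC or shSELP) and a bar at the mean. Igtp lies between 796 and 1681 CPM in tumor cells and between 82.3 and 138 CPM in macrophages, while Gbp7 has its highest mean in endothelial cells.

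The immunity-related GTPases took a larger part of the members' transcripts in tumor cells than in any other class. They held 66.5 ± 1.53% of the members' UMIs in tumor cells (SD, n = 4 libraries, range 64.4% to 67.8%). The share was 54.2 ± 2.91% in T cells, 47.3 ± 4.47% in endothelial cells, 38.2 ± 7.20% in dendritic cells, 35.0 ± 2.18% in microglia and 34.9 ± 2.60% in macrophages. The tumor range lay above all others, and the last 3 classes overlapped.

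Each class was then tested against macrophages, the most numerous class, with the library as a block and 11487 genes tested, among them all 10 members. Tumor cells had higher levels of all 5 immunity-related GTPases and of 2 guanylate-binding proteins. With edgeR, 7 of 10 members were called higher in tumor cells against 34.6% of all genes, and 0 lower. The members' median log2 fold change was 0.90, against −0.0157 over all genes. Irgm2 (3.27, SE 0.18, adjusted p 1.13e-15) and Igtp (2.75, SE 0.16, adjusted p 6.83e-15) differed most, higher in 4 of 4 libraries. Iigp1 (2.11), Irgm1 (1.85), Ifi47 (1.19), Gbp3 (0.60) and Gbp5 (0.48) followed. The call of Gbp5 (adjusted p 0.0333) was lost without library shNC 2 (0.34, adjusted p 0.219) and without shSELP 1 (0.52, adjusted p 0.0629). Gbp2 (−0.00116), Gbp4 (0.11) and Gbp7 (−0.25) were not called. Scaling by library size in place of TMM moved the median of all genes by 0.76, and under it all 10 members were called higher in tumor cells, as were 58.3% of all genes.

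Endothelial cells differed from macrophages in both directions, in shares of the members near those of all genes. With edgeR, 2 of 10 members were called higher (28.4% of all genes) and 4 lower (33.6%), with a members' median of 0.00308 against −0.12 over all genes. Irgm2 (1.98, SE 0.24, adjusted p 3.16e-08) and Iigp1 (1.32, SE 0.21, adjusted p 2.29e-06) were higher, and Gbp2 (−1.60), Ifi47 (−1.07) and Gbp4 (−0.93) lower. Library-size scaling moved the median of all genes by 0.73 and gave 6 members called higher (48.3% of all genes) and 1 lower (17.2%). Under it the calls of Gbp4 (−0.17, adjusted p 0.529) and Ifi47 (−0.30, adjusted p 0.167) were lost. Igtp (−0.44, adjusted p 0.0495) changed sign under that scaling (0.33) and its call was lost without shNC 1 (−0.41), shSELP 1 (−0.14) or shSELP 2 (−0.41), with DESeq2 (−0.18, adjusted p 0.501) and after thinning (−0.52, adjusted p 0.0625).

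T cells were lower than macrophages in 9 of 10 members with edgeR (31.9% of all genes), with a members' median of −1.67 against 0.000652. Gbp2 (−3.50, SE 0.24, adjusted p 1.77e-13) and Gbp5 (−2.57, SE 0.23, adjusted p 4.97e-11) differed most, and Igtp least among those called (−0.51, adjusted p 0.00675). Irgm2 was not called (−0.48, adjusted p 0.0558). Library-size scaling moved the median of all genes by 0.37, and 8 members were lower under it (22.7% of all genes), without Igtp (−0.12), whose call was also lost after thinning (−0.22, adjusted p 0.247).

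Microglia were lower than macrophages in 8 of 10 members (21.6% of all genes), Ifi47 (−2.48, SE 0.18, adjusted p 7.10e-12) and Gbp4 (−1.72, SE 0.21, adjusted p 1.78e-07) most. Irgm2 (0.21) and Iigp1 (−0.21) were not called by edgeR. The call of Irgm1 (−0.43, adjusted p 0.0499) was lost without shNC 2 (adjusted p 0.0836), shSELP 1 (0.301) or shSELP 2 (0.0851). DESeq2 (−0.31, adjusted p 0.254), library-size scaling (−0.22, 0.347) and the gate without interferon-inducible markers (0.0900), chosen after seeing the data, lost it as well. Dendritic cells were lower in 7 of 10 members with edgeR (22.8% of all genes), Gbp7 (−1.92, SE 0.17, adjusted p 9.25e-11) and Gbp4 (−1.49, SE 0.21, adjusted p 1.44e-06) most. Gbp5 (0.22), Irgm2 (−0.65) and Iigp1 (−0.50) were not called. The dendritic call of Gbp2 (−0.62, adjusted p 0.0233) was lost without shNC 1 (−0.40, adjusted p 0.110) or shNC 2 (−0.66, adjusted p 0.0705). It was also lost with DESeq2 (adjusted p 0.136), library-size scaling (0.142), thinning (0.0698) and the gate without interferon-inducible markers (0.0704). Library-size scaling moved the median of all genes by 0.22 in microglia and 0.20 in dendritic cells, and 6 members were called lower in each, 0 higher. Of all genes 13.6% were then lower and 23.8% higher in microglia, and 16.8% and 24.5% in dendritic cells. The microglia call of Gbp7 was lost under it (−0.34, adjusted p 0.0780).

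The other genes of the pathway went both ways in tumor cells, in numbers that depended on the scaling. Of 43 tested genes in 5 lists, edgeR called 11 higher and 22 lower in tumor cells than in macrophages, against 34.6% and 36.0% of all genes. Library-size scaling gave 20 higher and 14 lower, against 58.3% and 19.7%. All 5 genes of the list of interferon-gamma, its inducers and receptor were lower, with Ifngr1 at −2.42 (SE 0.18, adjusted p 1.12e-12) and Ifngr2 at −2.94 (SE 0.19, adjusted p 6.63e-14). Of these, Ifng had only 7 UMIs in tumor cells and was at 0.074% to 0.62% of its T cell level in macrophages. In these 2 classes Ifng was thus not separated from RNA outside cells, which is measured below. Of 9 signal transducers and regulators 2 were higher, with Irf1 at 1.85 (SE 0.15, adjusted p 1.13e-11), and 5 lower. Of 7 other interferon-gamma targets 1 was higher, Cxcl10 (1.32, SE 0.32, adjusted p 0.000584 by edgeR), and 4 lower. Of 9 other interferon-inducible GTPases 4 were higher, among them Tgtp1 (3.02, SE 0.27, adjusted p 4.76e-11), and 2 lower. Of 13 type I interferon-stimulated genes 4 were higher and 6 lower, and of 6 dissociation and stress genes 4 were higher and 2 lower. In microglia the 5 lists together gave 1 higher (15.8% of all genes) and 28 lower (21.6%), and 4 (23.8%) and 18 (13.6%) under library-size scaling. Dendritic cells gave 10 (16.9%) and 18 (22.8%), and 14 (24.5%) and 13 (16.8%) under that scaling. The counts were 8 (28.4%) and 28 (33.6%) in endothelial cells, then 11 (48.3%) and 21 (17.2%). In T cells they were 5 (30.1%) and 32 (31.9%), then 6 (45.8%) and 27 (22.7%).

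Transcripts of 1 class found in another gave a measure of RNA outside cells, to set beside the members' levels. Lyz2, at 11415 CPM in macrophages, was found in T cells at 0.29% to 0.65% of the macrophage level of the same library. The tumor transcript H19 was found in macrophages at 0.27% to 1.09% and in T cells at 0.30% to 1.57% of its tumor level. Igtp was at 6.87% to 10.6% of its tumor level in macrophages and at 5.63% to 11.2% in T cells, and Iigp1, the lowest member by this measure in T cells, at 2.81% to 4.14%. Irgm2 in dendritic cells, with 25 UMIs, was at 1.08% to 6.05% of its tumor level, while H19 and Prph, another tumor transcript, reached 1.67% and 2.05% there. Irgm2 was thus not separated from RNA outside cells in that class. After thinning to 2000 UMIs, with cells below that number left out, 94.5%, 98.6%, 97.7% and 96.0% of 255, 139, 43 and 25 tumor cells had at least 1 UMI of a member in shNC 1, shNC 2, shSELP 1 and shSELP 2. The shares were 78.0%, 84.9%, 82.9% and 87.0% in macrophages and 54.5%, 68.1%, 57.9% and 65.5% in T cells. Thinned T cells had Lyz2 in 8.18%, 7.14%, 6.85% and 13.1%, and all of these shares are at the equal depth of 2000 UMIs. Tumor cells had medians of 15797, 16744, 13162 and 6542.5 UMIs before thinning, and T cells 5902, 5625.5, 4944 and 7569.5. For Igtp alone the shares were 69.8%, 87.8%, 81.4% and 76.0% of tumor cells and 12.9%, 23.6%, 18.7% and 24.3% of macrophages.

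Tumor cells of the shSELP and shNC groups were compared to ask whether knockdown of P-selectin in the tumor goes with another level of the GTPases. The groups overlapped in 9 of 10 members, and Gbp7 was at 154 and 228 CPM in shNC and at 237 and 291 in shSELP. Of all genes 25.3% were higher and 17.4% lower in both shSELP libraries, so the order of Gbp7 was a common one. For Igtp the shNC libraries, at 796 and 1681 CPM, enclosed both shSELP libraries. With edgeR, 0 of 10 members were called against 0.0746% of 9387 genes, with 0 at an unadjusted p under 0.05 and 0 called by DESeq2. The members' median log2 fold change was 0.17, positive in 7 of 10, against −0.00854 over all genes. Their sum was lowest in shNC 1 (3583 CPM) and highest in shNC 2 (6416), with 6342 and 5440 in the shSELP libraries. Gbp7 had 0.37 (SE 0.23, adjusted p 0.618 by edgeR). The 5 pathway lists gave 0 calls in 38 tested genes (2 at an unadjusted p under 0.05, 0 by DESeq2), and the stress list 0 in 4 (1; DESeq2 0). The comparison rested on 48 and 34 tumor cells in the shSELP libraries. In shSELP 2 the stricter gate held 20 of them, and the gate without interferon-inducible markers, chosen after seeing the data, held 58 tumor cells.

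Macrophages, the class with the most cells, had close levels in the groups. Ifi47 was at 137 and 208 CPM in the shNC libraries and at 206 and 220 in the shSELP libraries. Gbp7 (124 and 152 against 158 and 162 CPM) and Irgm2 were higher in both shSELP libraries, Gbp4 (148 and 146 against 100 and 131 CPM) was lower in both, and the other 7 overlapped. This order was not rare, with 16.0% of all genes higher and 29.9% lower in both. With edgeR, 0 of 10 members were called against 0.445% of 11004 genes, 1 passed an unadjusted p under 0.05 (Gbp7, 0.27, SE 0.11, adjusted p 0.351), and the DESeq2 count was 0. The members' median was 0.21, positive in 9 of 10, against −0.000844 over all genes. Their sum was lowest in shNC 1 (1225 CPM), with 1595 in shNC 2 and 1445 and 1615 in the shSELP libraries. The 5 pathway lists gave 0 calls in 43 tested genes (4 at an unadjusted p under 0.05, 0 by DESeq2), and the stress list 0 in 6 (1; DESeq2 0).

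In microglia, Gbp4 was lower in the shSELP group. It was at 59.9 and 66.6 CPM in the shNC libraries and at 35.4 and 35.2 CPM in the shSELP libraries. The other 9 members overlapped between groups, while 25.9% of all genes were higher and 19.1% lower in both shSELP libraries. With edgeR, 1 of 10 members was called against 1.79% of 7375 genes, Gbp4 (−0.89, SE 0.22, adjusted p 0.0488). The call was lost with DESeq2 (adjusted p 0.324), under library-size scaling (0.0748), without the highest Scrublet scores (0.0550), with the stricter gate (0.0535) and the gate without interferon-inducible markers (0.171, chosen after seeing the data), and without shNC 1 (0.0966), shNC 2 (0.562) or shSELP 1 (0.155), while the log2 fold change stayed between −0.94 and −0.68. Iigp1 was at 83.2 and 108 CPM in shNC and at 58.6 and 87.2 in shSELP (−0.49, SE 0.22, adjusted p 0.314 by edgeR). The members' median was −0.13 against 0.00668 over all genes, and it turned to 0.14 without shSELP 1, the library with 249 of the microglia.

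Other genes moved in the same microglia. All 6 stress genes had positive log2 fold changes (median 1.04), and edgeR called 4 higher (DESeq2 3). Hspa1a was at 88.2 and 32.3 CPM in shNC and at 215 and 114 in shSELP. Of 34 tested genes in the 5 pathway lists edgeR called 1 higher, Ifngr1 (160 and 130 against 277 and 256 CPM), and 3 lower, Il12b, Cxcl10 and Isg15. Without shNC 2 the calls of Ifngr1 (0.69, adjusted p 0.470), Cxcl10 (−0.54, 0.525), Isg15 (−0.67, 0.415) and the 4 stress genes were lost, such as Hspa1a (0.87, 0.621). Thinning lost the same 7 calls. DESeq2 lost Il12b and Hspa1a, leaving out the highest Scrublet scores lost Il12b, Cxcl10, Isg15, Hspa1a and Egr1, and the gate without interferon-inducible markers lost Isg15, Jun and Egr1. Without shNC 1 those of Il12b (−1.03, 0.144) and Cxcl10 (−0.79, 0.0556) were lost, and without shSELP 1 that of Dnajb1 (0.86, 0.0585), all by edgeR. The 12 tested type I interferon-stimulated genes were all negative (median −0.54), while Irf1 (0.38, adjusted p 0.342) was not called by edgeR. The stress genes and cell numbers differed along with Gbp4, and their part in the result was not tested.

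In dendritic cells the sum of the members was lowest in shNC 1 (585 CPM, against 1134 in shNC 2, 927 in shSELP 1 and 1313 in shSELP 2). Gbp2 was at 161 and 412 CPM in the shNC libraries and at 363 and 533 in the shSELP libraries, and Gbp5 at 38.0 and 102 against 83.2 and 144. T cell markers in the same dendritic cells summed to 127, 66.2, 34.4 and 18.6 CPM in shNC 1, shNC 2, shSELP 1 and shSELP 2, and their part in the result was not tested. The groups overlapped in all 9 members that passed the filter on low counts (Irgm2 did not pass it), while 17.9% of all genes were higher and 20.4% lower in both shSELP libraries. With edgeR, 0 of 9 were called against 0.0151% of 6628 genes, 2 had an unadjusted p under 0.05 (Gbp2, 0.66, SE 0.30; Gbp5, 0.72, SE 0.34), and DESeq2 called 0. Without shNC 2 the group left shNC 1 alone on its side, and 4 members were called higher, against 3.72% of 7014 genes called in that fit. The members' median was 0.37, positive in 7 of 9, against 0.00189 over all genes, and it was 0.72 without shNC 2. The 5 pathway lists gave 0 calls in 32 tested genes with edgeR (5 at an unadjusted p under 0.05, 0 by DESeq2), and of the stress genes Fos was called lower (−1.31, adjusted p 0.0490). That call was lost under library-size scaling (adjusted p 0.190), thinning (0.687), the Scrublet filter (0.0907), the stricter gate (0.1003) and the gate without interferon-inducible markers (0.0725), chosen after seeing the data.

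Endothelial cells had sums of the 10 transcripts of 2111 and 2775 CPM in shNC and 1376 and 2076 CPM in shSELP. Both shSELP sums lay below both shNC sums, while the counting intervals of shNC 1 (1854 to 2395) and shSELP 2 (1946 to 2211) overlapped. These intervals cover counting error only, so they cannot decide whether the groups differ. Iigp1 was at 515 and 502 CPM in the shNC libraries and at 228 and 301 in the shSELP libraries, and Gbp2 at 393 and 389 against 151 and 281. These 2 of 10 members were lower in both shSELP libraries, as were 22.6% of all genes (25.1% were higher), and the other 8 overlapped. With edgeR, 0 of 10 members were called against 0.396% of 5055 genes, 3 had an unadjusted p under 0.05 (Iigp1, Gbp2 and Ifi47), and DESeq2 called 0. Iigp1 had −0.98 (SE 0.23, adjusted p 0.125 by edgeR) and Gbp2 −0.92 (SE 0.31, adjusted p 0.252 by edgeR). The members' median was −0.62, negative in 9 of 10 with Gbp7 the exception (0.12), against 0.000788 over all genes. Without shNC 2 the median was −0.0963 and Iigp1 was called (−0.93, adjusted p 0.0363), against 4.13% of 7048 genes. After thinning Gbp2 was called (−1.63, adjusted p 0.0485), against 0.708% of 1554 genes. The shNC values rested on 19 and 26 cells. In shNC 1, 2 of the 15 cells thinned to 2000 UMIs held 53.7% of the members' UMIs.

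Other genes differed in the same endothelial cells. Cxcl9 was at 838 and 1686 CPM in the shNC libraries and at 69.3 and 117 in the shSELP libraries (−3.86, SE 0.38, adjusted p 0.00326 by edgeR), the 1 call among 28 tested genes of the 5 pathway lists. All 6 tested interferon-gamma targets were negative (median −1.12). All 6 stress genes were positive (median 0.95), with 0 called by edgeR, 5 at an unadjusted p under 0.05 and 1 called by DESeq2. Of the endothelial cells 335 came from shSELP 1. Markers of other classes were found in these cells too. Dendritic markers summed to 157 and 215 CPM in shNC 1 and shNC 2, 40.7 in shSELP 1 and 56.2 in shSELP 2. In shNC 1 and shNC 2 only 4 and 5 of 14 were detected, mostly Fscn1 (131 and 144 CPM), without Ccr7. Tumor cells of these libraries also had Fscn1 (151 and 132 CPM). Tumor markers summed to 192, 454, 382 and 324 CPM in endothelial cells in the same order, with overlapping groups. T cell markers summed to 34.9, 17.9, 8.27 and 12.97 CPM, where 3 UMIs are 26.2 and 17.9 CPM in shNC 1 and shNC 2. The part of stress, of cell numbers and of RNA from other classes in the members' values was not tested.

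T cells had overlapping groups in 9 of 10 members, where 20.4% of all genes were higher and 20.7% lower in both shSELP libraries. Gbp3, at 42.1 and 50.5 CPM in the shNC libraries, was lower in both shSELP libraries (36.7 and 41.8). Igtp was at 72.7 and 112 CPM in shNC and at 87.4 and 145 in shSELP, with library 2 above library 1 in each group. With edgeR, 0 of 10 members were called against 0.0103% of 9664 genes, with 0 at an unadjusted p under 0.05 and 0 called by DESeq2. The members' median was 0.15 against 0.0112 over all genes. Ifng was at 725 and 745 CPM in shNC and at 655 and 884 in shSELP, which overlapped. The 5 pathway lists gave 0 calls in 34 tested genes with edgeR (3 at an unadjusted p under 0.05, 0 by DESeq2), and the stress list 0 in 6 (3; DESeq2 1).

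**Figure D2:**
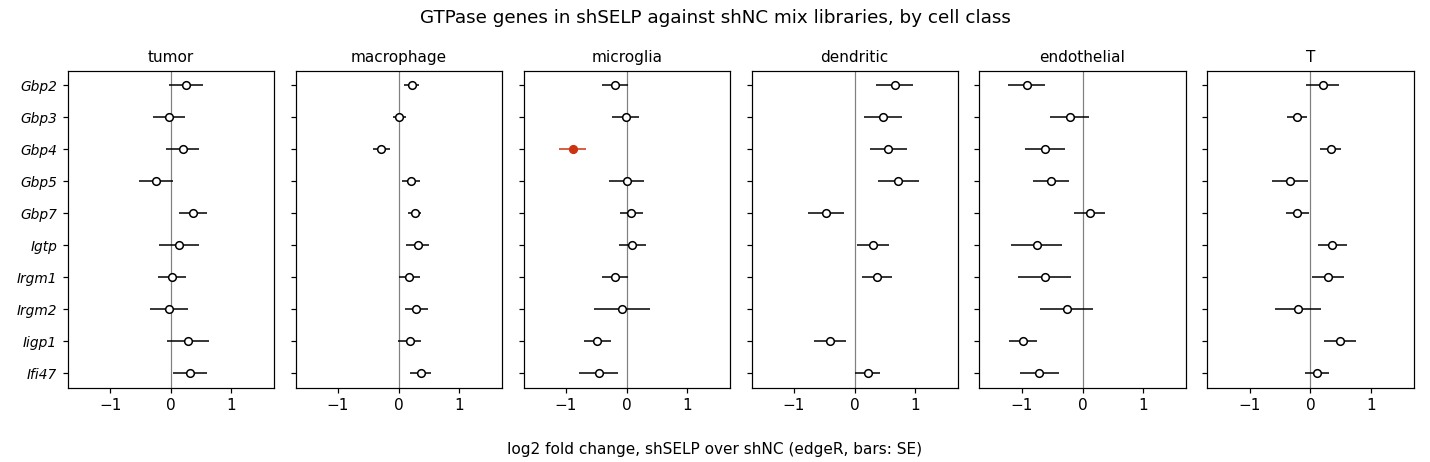
Log2 fold change of each member in shSELP over shNC by cell class, with bars of 1 standard error of the edgeR fit and 2 libraries per group. Gbp4 in microglia (−0.89) is the 1 member called (filled, not called with library-size scaling), and Gbp7 is the 1 positive value in endothelial cells (0.12).

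Library number went with the members' levels in several classes. Library 2 was above library 1 in both groups for 10 of 10 members in T cells, against 27.5% of all genes tested. The same held for 8 of 10 in macrophages (26.2%), 8 of 9 in dendritic cells (35.0%) and 7 of 10 in endothelial cells (26.0%). It held for 5 of 10 in microglia (25.04%) and 2 of 10 in tumor cells (30.3%), and the opposite order in both groups for 1 member, Irgm2 in microglia. Whether libraries of the same number were prepared together is not given in the sources used here.

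Whether the difference between groups depended on the class was tested against macrophages in 12025 genes. With edgeR, 0 of 10 members were called in tumor cells (0.516% of all genes), microglia (0.175%), dendritic cells (0.00832%), endothelial cells (0.249%) and T cells (0.0166%). At an unadjusted p under 0.05 there were 0, 1, 2, 4 and 2 members in these classes, and DESeq2 called 0 in each. The members' median difference was −0.27 in microglia (0.0522 over all genes), 0.0964 in dendritic cells (−0.000768), −0.55 in endothelial cells (0.22) and −0.13 in T cells (−0.00506). In tumor cells it was −0.0695 with TMM (−0.0953 over all genes) and 0.16 with library-size scaling, which moved the median of all genes by 0.22. The lower Gbp4 in microglia was therefore not shown to differ from the response of macrophages.

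The CD11b+ libraries, from day 21 by their labels, gave 1 library per group, so their differences have no replicate check and their intervals cover counting error only. Their direction rests on the title, source name and genotype of the shSELP entries and on the column names of the count table, while 7 of 8 descriptions name the negative control. Macrophages of the library labelled shSELP had more of all 10 transcripts. The sum was 745 CPM in shNC and 1309 in shSELP, from 1960 and 2280 cells (ratio 1.76, 95% interval 1.71 to 1.81). All 10 members had a ratio above 1, against 61.4% of 9157 genes with at least 50 UMIs, and 8 had a ratio above 1.5, against 9.97%. The median ratio was 1.78, against 1.08 over all genes. If the labels of the 2 libraries were exchanged, the ratio of the sums would be 0.569 and all 10 members would be below 1. The share of genes above 1 would then be 38.6%. The 7 descriptions state no such exchange, since they would leave both libraries as negative controls. Gbp2 went from 197 to 389 CPM (1.98, interval 1.87 to 2.10), Iigp1 from 52.7 to 103 CPM (1.95, 1.75 to 2.18) and Igtp from 59.3 to 111 CPM (1.86, 1.68 to 2.07). Gbp4 (1.44, 1.31 to 1.59) and Irgm1 (1.31, 1.14 to 1.505) had the lowest ratios. With TMM scaling the ratio of the sums was 1.65. In macrophages of the mix the ratio of the group means was 1.09, from libraries labelled day 16. The paper describes some clusters of the CD11b+ cells as appearing to differ in cell numbers between the groups. How the gated macrophages fall among such clusters was not tested.

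Microglia of the CD11b+ libraries had sums of 646 CPM (shNC) and 956 CPM (library labelled shSELP), a ratio of 1.48 (1.32 to 1.66). All 8 members with at least 50 UMIs had ratios above 1 (52.7% of 3520 genes), of which Irgm1 (1.04) turned to 0.99 with TMM scaling and Gbp3 (1.40) to 0.97 after thinning. Irgm2 (0.89) and Ifi47 (0.995), with fewer UMIs, were below 1. The intervals of 4 of the 10 lay above 1, as did 6.69% of 7875 genes with at least 10 UMIs. Of the 8, 3 were above 1.5 (8.55%), Gbp4 (1.83, interval 1.15 to 2.96), Gbp2 (1.79, 1.46 to 2.19) and Igtp (1.64, 1.08 to 2.49). With the groups exchanged the ratio of the sums would be 0.676, all 8 members would be below 1 and 47.3% of genes above 1. Gbp4 was higher here in the library labelled shSELP and lower in microglia of the shSELP group of the mix, a contrast that would vanish with the groups exchanged (0.545). Dendritic cells, 55 and 51, had sums of 504 and 1231 CPM (2.44, 1.87 to 3.21), and Gbp2, with 39 and 82 UMIs, a ratio of 2.55 (1.72 to 3.84), or 0.409 for the sums with the groups exchanged. In the CD11b+ macrophages 28 of 39 genes of the 5 pathway lists with at least 50 UMIs had ratios above 1 (median 1.21), and 2 of 6 stress genes (median 0.637), against 61.4% of all genes. Exchanged groups would give 11 of 39 and 4 of 6 above 1, against 38.6%. With the labels as given, 7 of 9 signal transducers and regulators were above 1 (median 1.42), while Irf1 had 0.96. So were 10 of 13 type I interferon-stimulated genes (median 1.08), while Isg15 had 0.74. The counts were 5 of 6 other interferon-inducible GTPases (median 1.33) and 4 of 7 other interferon-gamma targets (1.07). Of the ligand, inducer and receptor genes 2 of 4 were above 1 (median 1.09), with Ifngr1 at 1.21. The stress gene Egr1 had 1.85, against the direction of most of its list, and Hspa1a 0.48. The macrophage markers summed to 14734 and 14599 CPM in the macrophages of these libraries. The leukocyte gene Ptprc, which is not a member, went from 270 to 436 CPM in macrophages, 182 to 257 in microglia and 204 to 554 in dendritic cells from shNC to the library labelled shSELP.

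**Figure D3:**
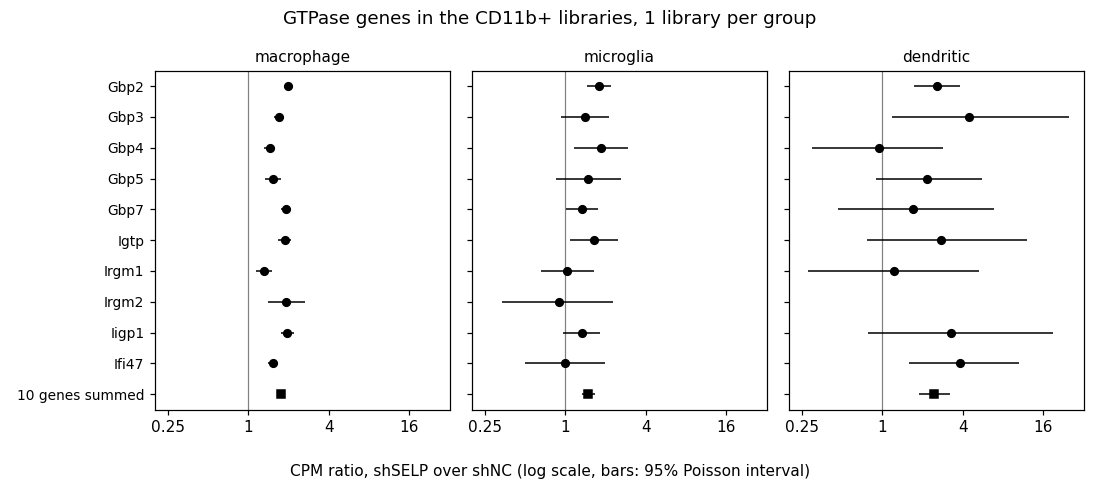
Ratio of CPM in the CD11b+ library labelled shSELP over shNC for each member in macrophages, microglia and dendritic cells, on a log axis with 95% counting intervals and 1 library per group (Irgm2 in dendritic cells, with 0 and 2 UMIs, is not drawn). All 10 macrophage ratios lie above 1, from 1.31 (Irgm1) to 1.98 (Gbp2).

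Over the 24 sums of class and library, which share libraries and depth, the log2 levels of the members correlated in pairs to different degrees. The 45 pairs ran from r = 0.438 (Gbp7 and Ifi47) and 0.447 (Gbp2 and Gbp7) to 0.93 (Gbp3 and Irgm1). These r include the differences in level between classes. Over thinned cells within a class and library, the median r of pairs lay between −0.018 (microglia, mix shNC 2) and 0.25 (dendritic cells, mix shNC 1). UMIs per cell were few there, and not all members were compared in each class. Among 5969 other genes, those most alike to the mean standardised profile of the 10 included Ckap4 (r = 0.94), 0610009B22Rik (0.94), Psmd7 (0.92) and Tnfrsf12a (0.91).

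Promoters were searched for the letters GAAANNGAAA (TTTCNNTTTC on the other strand), the core bound by Irf1 and related factors, and TTCNNNGAA (its own reverse complement), a core of promoters that answer to interferon-gamma, in the 250 bases before each RefSeq start in GRCm38.p6. Of the 10 members, 8 were matched to a promoter, and Gbp4 and Iigp1 had no entry. The first core was found in 7 of 8 members, all but Ifi47, and in 7 of their 9 promoter entries, since Gbp3 has a second entry without a match, against 978 of 32851 entries (2.98%). The second was found in 4 of 8 members and 4 of 9 entries, for Gbp5, Gbp7, Igtp and Irgm2, against 2306 entries (7.02%). A match of letters is a description and does not show binding. The nearest match of the first core lay 14 bases before the start in Irgm1, 24 in Igtp, 29 in Gbp3, 43 in Gbp7, 49 in Gbp2, 54 in Irgm2 and 155 in Gbp5. The RefSeq promoter of Irgm2 (58214727 to 58214976 on chromosome 11) lies past the end of Igtp. The upstream sequences of 4 members are given because they show where the core lies, in lower case with both cores in capitals and read 5′ to 3′ towards the gene. In Igtp (chr11:58199306-58199555, plus strand) the capitals are 1 match of each core, and in Irgm1 (chr11:48871421-48871670, minus strand) 2 overlapping matches of the first core.
Igtp: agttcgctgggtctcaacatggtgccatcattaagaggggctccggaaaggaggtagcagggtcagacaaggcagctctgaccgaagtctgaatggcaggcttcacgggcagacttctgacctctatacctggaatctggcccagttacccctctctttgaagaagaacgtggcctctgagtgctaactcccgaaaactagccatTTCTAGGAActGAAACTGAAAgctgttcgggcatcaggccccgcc
Irgm1: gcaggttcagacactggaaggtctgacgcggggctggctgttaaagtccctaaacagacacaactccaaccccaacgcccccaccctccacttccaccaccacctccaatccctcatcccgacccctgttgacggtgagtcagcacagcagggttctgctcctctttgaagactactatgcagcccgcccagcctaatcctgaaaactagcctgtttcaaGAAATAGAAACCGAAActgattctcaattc
In Gbp2 (chr3:142620413-142620662, plus strand) the capitals are 1 match of the first core on the other strand, and in Gbp3 (chr3:142559794-142560043, plus strand) 2 overlapping matches on that strand.
Gbp2: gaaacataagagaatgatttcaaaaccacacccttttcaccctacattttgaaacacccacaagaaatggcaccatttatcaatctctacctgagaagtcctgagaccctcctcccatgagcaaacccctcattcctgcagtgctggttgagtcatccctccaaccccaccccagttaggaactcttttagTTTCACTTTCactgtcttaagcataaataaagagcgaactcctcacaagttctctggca
Gbp3: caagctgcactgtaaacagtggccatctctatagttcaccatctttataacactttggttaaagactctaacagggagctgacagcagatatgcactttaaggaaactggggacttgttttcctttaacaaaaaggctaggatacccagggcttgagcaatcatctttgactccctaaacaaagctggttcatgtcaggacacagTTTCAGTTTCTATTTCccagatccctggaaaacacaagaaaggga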

How the data were processed

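The authors aligned 10x single-cell reads to mm10 with Cell Ranger 1.3 and deposited whole-number UMI counts per gene and cell for 4 libraries of the mix and 2 CD11b+ libraries. Groups were taken from the labels and libraries from the column prefixes. Kept were the cells with 500 or more genes detected and no more than 10% of mitochondrial UMIs (2183, 2179, 2190 and 2174 in the mix libraries, 2731 and 2804 in the CD11b+ libraries).

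A cell was gated to a class when its marker score, scaled to the 25 best cells of that class, was at least 0.3, the second score was at most 0.7 of the first, and at least 3 markers were detected. These thresholds were set after the marker scores, but not the 10 genes, had been looked at. The 10 genes and the lists beside them were chosen with earlier results of these data known. UMIs were summed per library and class and given as CPM of that class. Tests used edgeR 4.0.16 in R 4.3.3 (low-count filter, TMM scaling, quasi-likelihood F tests, two-sided, Benjamini-Hochberg over all genes tested, called at an adjusted p under 0.05), and an exact permutation test of 2 against 2 libraries could not go below 0.333. Cells are not replicates here. CD11b+ ratios carry exact Poisson intervals at 95% from counts scaled by library size, and the ratio of 1.5 used to count genes was chosen after the values were seen. Intervals cover counting error only.

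Alternatives were DESeq2 1.42.0, no filter, library-size scaling, each library left out, a replicate block, cells thinned to 2000 UMIs, the 5% highest Scrublet scores (scanpy 1.11.5) left out and a stricter gate. Added after seeing the data were a crossed block in tumor cells and a gate without interferon-inducible markers. In simulated counts with 200 genes changed by 2 on the log2 scale, edgeR recovered 159 in tumor cells (9287 genes tested), 190 in macrophages (10997) and 170 in microglia (7359). It recovered 175 in dendritic cells (6508), 163 in endothelial cells (4995), 183 in T cells (9655) and 180 between classes (9662). False calls in the same order were 9, 8, 7, 2, 10, 13 and 5. The simulated spread was set to the same value for all genes. Recovery at this size of change does not carry over to smaller changes, such as those of the members between groups.

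Genes named were all 10 members whatever their value, Ifng, its receptors and Irf1, and up to 5 called genes per list (interferon-gamma, its inducers and receptor; signal transducers and regulators; other interferon-gamma targets; other interferon-inducible GTPases; type I interferon-stimulated genes; dissociation and stress genes). Up to 5 genes most alike were ranked by Pearson correlation of log2(CPM + 10) over 24 sums among genes of a mean of at least 20 CPM. Other genes named in the CD11b+ cells were picked after their values were seen.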

Additional observations from a re-analysis of the deposited data

How the results depend on the processing

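The number of members called in microglia for shSELP against shNC was 1, and it was 0 with DESeq2, library-size scaling, the highest Scrublet scores left out, the stricter gate and the gate without interferon-inducible markers, an alternative chosen after seeing the data. After thinning to 2000 UMIs Gbp4 was not among the 5 members tested, so that count of 0 says nothing about its call. With each library left out it ran from 0 to 2 (4.21% of all genes called where it was 2), and with the replicate block it was 1. The count in dendritic cells was 0, with a range of 0 to 4 (3.72%) over left-out libraries. In endothelial cells it was 0, with a range of 0 to 1 (4.13%) over left-out libraries and 1 after thinning (0.708%, 7 members tested). With 1 library left in a group its spread is assumed to be that of the others. In tumor cells, macrophages and T cells the count was 0 under every alternative run, among them the crossed block in tumor cells, chosen after seeing the data. The counts of members called against macrophages, over both directions, kept within 1.5 times their value, but in endothelial cells 2 higher and 4 lower became 6 and 1 under library-size scaling (48.3% and 17.2% of all genes). The counts for the difference in response were 0 under every alternative run. In endothelial cells against macrophages Igtp turned to 0.33 under library-size scaling. The ratio of sums in CD11b+ macrophages was 1.65 with TMM scaling. Of the alternatives for single genes, 436 of 461 kept direction and call against macrophages, 24 lost the call and 1 changed direction. For shSELP against shNC 121 of 164 kept both, 40 lost the call and 3 gained it, and for CD11b+ ratios 88 of 90 stayed within the counting interval. Except where fewer genes were tested, the cause was not tested. Depth limited tumor cells most in the shSELP libraries (48 and 34 cells) and endothelial cells in the shNC libraries (19 and 26).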
